A study of Homo sapiens with 66 samples.

Results

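The subunits of the mitochondrial respiratory chain are described here as targets of chromatin binding by hypoxia-inducible factor (HIF). Members were the protein-coding GENCODE genes on GRCh37 whose symbols begin with NDUFA, NDUFB, NDUFC, NDUFS or NDUFV (complex I, without the NDUFAF assembly factors), UQCR (complex III), SDHA to SDHD (complex II), COX4 to COX8 (complex IV) or ATP5 (complex V, without ATP5IF1). This gave 89 of 20162 protein-coding genes, of which 2 were read-through genes (NDUFC2-KCTD14 and ATP5MF-PTCD1). A gene was counted as having a peak in a library when the centre of a peak lay in the gene body or within 10 kb of the transcription start site (TSS).

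Respiratory chain complexes I to IV pass electrons from NADH and succinate to oxygen and complex V makes ATP from the resulting proton gradient. HIF is a dimer of an oxygen-regulated α-subunit, HIF-1α or HIF-2α, with the constitutive HIF-1β, and it binds the core sequence RCGTG of the hypoxia response element (HRE). In low oxygen HIF is known for raising glycolysis and for lowering mitochondrial oxygen use, and among the subunit genes NDUFA4L2, a paralogue of NDUFA4, and COX4I2, an isoform that can take the place of COX4I1, are textbook hypoxia-inducible genes.

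Chromatin immunoprecipitation and sequencing (ChIP-seq) peak lists were available for 50 libraries in 25 groups of 2. HKC-8 renal tubular cells were kept for 6, 16 or 48 h at 0.5% oxygen, or for 6 h at 3% oxygen, in a severity and duration experiment, and HIF-1α, HIF-2α and HIF-1β were precipitated from each (24 libraries). In a separate knockout experiment at 0.5% oxygen for 16 h, wild-type HKC-8 cells were compared with CRISPR-Cas9 lines that lacked HIF-1α or HIF-2α (14 libraries), each knockout being a single clone. RCC4 renal carcinoma cells, which lack VHL and stabilise HIF-α in normoxia, and HepG2 liver cancer cells at 0.5% oxygen for 16 h gave 6 libraries each. The files analysed here hold binding and not RNA, so a peak shows occupancy near a gene and not a change in its expression.

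The lists differed in length from 237 to 8279 peaks, and their read depth is unknown. Lists of the severity and duration experiment were the shortest (at most 1793 peaks), those of the knockout experiment had 915 to 8279 peaks, and RCC4 and HepG2 had 911 to 5680 and 3470 to 6851. In HepG2, the libraries labelled replicate 1 of HIF-1α and of HIF-2α went against the order seen in wild-type HKC-8, and those labelled replicate 2 followed it. Peaks centred within 1 kb of a gene start made up 4.13% of the library labelled HepG2 HIF-1α replicate 1 and 22.3% of replicate 2, against 24.0% and 5.23% of those labelled HIF-2α. In wild-type HKC-8 these shares were 13.9% and 13.7% for HIF-1α and 3.67% and 3.34% for HIF-2α. The isoform test is therefore given with and without HepG2. RCC4 HIF-1α replicate 1, with 5680 peaks and 31.1% at gene starts against 2120 and 12.2% in replicate 2, also differed from its partner.

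HRE cores nearest to the centre of the most often called sites show what lay under these peaks. Each stretch of 29 bases is given 5′ to 3′ on the strand of the gene, with every core (ACGTG or GCGTG, on either strand) in capitals.
NDUFS7, gene start (chr19:1383623-1383651, plus strand, 111 bases downstream of the TSS): ccacccagggacGCGTGgtgacttttgcc
ATP5PO, gene start (chr21:35288114-35288142, minus strand): acgccaacgcgcGCGTGcgcccttgcgcg
NDUFB8, first exon (chr10:102289609-102289637, minus strand): tgcagaagggaaACGTGaagaaggtgaag
NDUFA1, upstream (chrX:119004994-119005022, plus strand): agcgcacggtggCACGTagatgctcgggc
NDUFC1, 5′ UTR exon (chr4:140216944-140216972, minus strand): actgagctgggcCACGCaagatggcgccg
NDUFA4L2, last exon (chr12:57629011-57629039, minus strand): gtggcacaggctACGTGttgaGCGTGgcc
COX4I2, intron (chr20:30226306-30226334, plus strand): caggcctgtgtgCACGTaggcagccaatt
UQCRHL, downstream (chr1:16126662-16126690, minus strand): ctgattcacctgCACGCcttcattccccc
The NDUFA4L2 stretch held 2 cores separated by 4 bases, and 7 cores lay within 100 bp of the site's centre. ATP5PO had 1 core within that distance, at 11 bases from the centre, and NDUFB8 had 3. NDUFS7 and COX4I2 had none within 100 bp, their nearest cores being 114 and 128 bases from the centre. Each of the printed stretches occurs once in the assembly. The nearest core at the ATP5MGL site is not shown because its 29 bases occur 213 times. Of the 229 distinct peaks at members, 65.5% had a core within 100 bp of the centre, against 49.5% of the 131131 peaks of all lists on chromosomes 1 to 22, X and Y. Those peaks repeat a few sites, and counted once each 48.5% of the 66 member sites had a core, with 63.3% of the 30 sites called in 2 libraries or more and 36.1% of the 36 called in 1. A core lay within 100 bp of the TSS in 48.3% of members and in 42.8% of all protein-coding genes.

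A peak was found in at least 1 library at 45 of the 89 members, against 59.9% of all protein-coding genes, and 44 members had none in any library. Members are short genes, with a median length of 12400 bp against 27200 bp for all genes, so their search windows were smaller. Where every gene had the same window, 10 kb to either side of the TSS, 44.9% of members and 41.9% of all genes had a peak. Within 1 kb of the TSS, these shares were 22.5% and 20.9%. With equal windows and all 50 libraries pooled, subunit genes thus had peaks about as often as other genes. The experiments differed in this, with 10 kb to either side of the TSS. Members had 13.5% against 16.5% of all genes in the severity and duration experiment and 8.99% against 15.9% in the knockout experiment. They had 16.9% against 18.1% in RCC4 and 29.2% against 22.9% in HepG2.

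Complex by complex, the calls were thin. Of the 7 core subunits of complex I, which carry the flavin and iron-sulphur clusters, 2 had a peak and 5 had none. Of its 31 accessory subunits 17 had a peak. Complex II, succinate dehydrogenase, had a peak at 3 of 4 genes, none of them in more than 2 libraries. Complex III had a peak at 5 of 9 genes, complex IV (counted with NDUFA4) at 8 of 18 and complex V at 9 of 19. NDUFA4L2, counted on its own, had one. Of all 45 members with a peak, 16 had it in 1 library, 20 in 2 to 9 libraries and 9 in 10 libraries or more. The share of genes with a peak in at least 10 libraries was 10.1% among members and 12.5% among all genes, and the share called in both replicates of some group was 15.7% against 25.7%. Both shares used the gene-body window, with a median of 22400 bp for members and 37200 bp for all genes. They are therefore no comparison at equal windows.

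**Figure D1:**
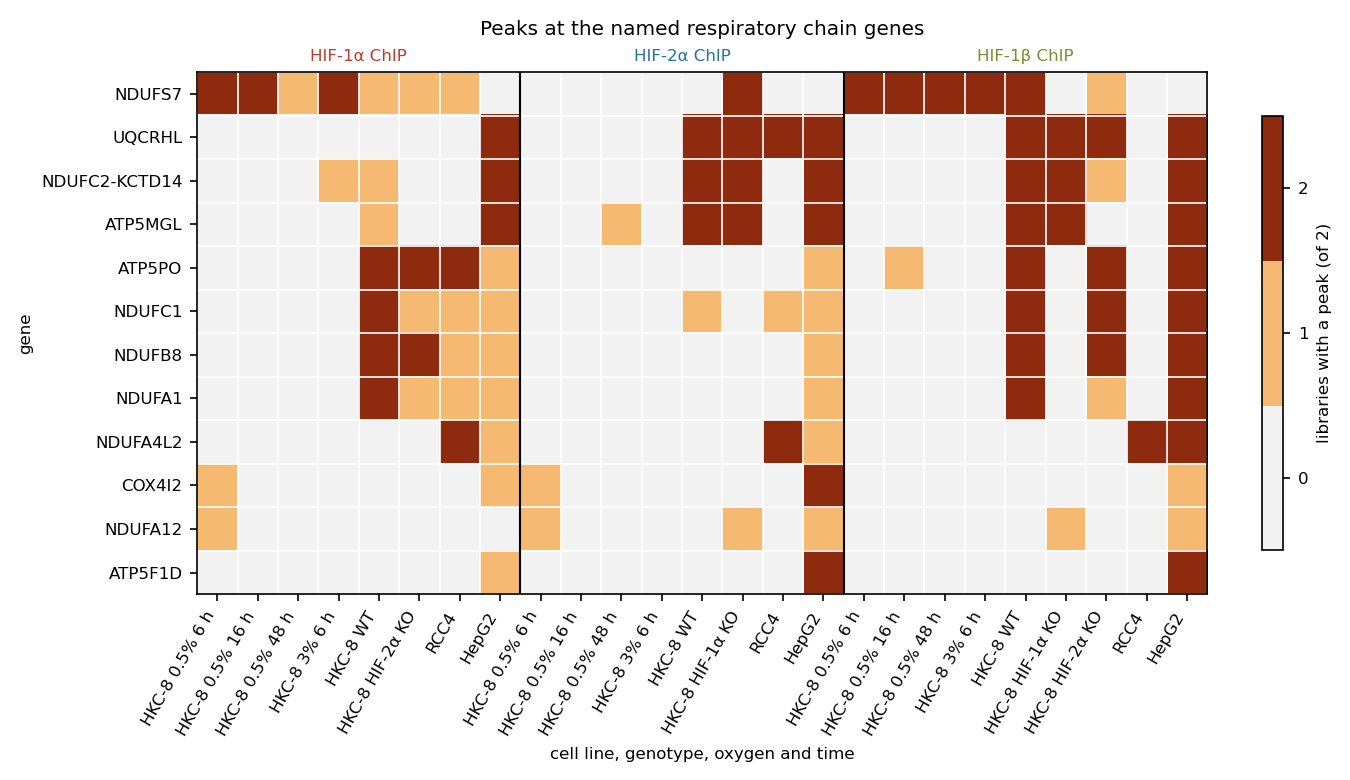
Number of replicate libraries (0, 1 or 2) with a peak at each of the 12 named genes (rows) in each cell line, genotype, oxygen level and time (columns), grouped by antibody. NDUFS7 fills most HIF-1α and HIF-1β columns of the HKC-8 severity and duration experiment, while NDUFA4L2 is marked in RCC4 and HepG2 columns and in no HKC-8 column.

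NDUFS7, a core iron-sulphur subunit that hands electrons on to ubiquinone, had a peak in more libraries than any other member, 23 of 50. In 19 of these the peak lay over the gene start (chr19:1382866-1384491), in 10 HIF-1α, 9 HIF-1β and 0 HIF-2α libraries. In HKC-8 at 0.5% oxygen for 6 h it ranked 64 of 1496 and 43 of 1319 peaks by score in the HIF-1α lists, and at 3% oxygen 23 of 1223 and 17 of 656. At 16 h it ranked 50 of 1313 and 135 of 951, and at 48 h it ranked 56 of 1073 in replicate 1 and was not called in replicate 2. All 8 HIF-1β libraries of this experiment had the peak, at 6.06% to 32.0% of the way down the list, and none of its 8 HIF-2α libraries did. NDUFS7 was the one member called in both replicates of any of the 12 groups of the severity and duration experiment, where 5.79% of all genes were called in both replicates of at least 1 group.

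At the NDUFS7 start the knockout experiment gave fewer calls than the severity and duration experiment. The peak was present in wild-type HIF-1α replicate 1 (750 of 1913), in HIF-2α KO HIF-1α replicate 1 (515 of 1271) and in HIF-2α KO HIF-1β replicate 2 (1531 of 2085), in 1 of 2 replicates each time. No library of the HIF-1α KO had it. In RCC4 it was called in HIF-1α replicate 1 alone (1441 of 5680), and no HepG2 library had it.

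A separate site about 10 kb upstream of NDUFS7 carried HIF-2α. It was called in all 4 HIF-2α libraries and in 4 of the 6 HIF-1β libraries of the knockout experiment, those of wild-type and HIF-1α KO cells, and it straddled the edge of the search window. Its centre was 9.98 and 9.54 kb upstream of the TSS in wild-type HIF-1β and 9.97 and 9.75 kb upstream in HIF-1α KO HIF-2α, just inside 10 kb. In wild-type HIF-2α replicate 1 it was 10.1 kb upstream, and in replicate 2 and both HIF-1α KO HIF-1β libraries it was also just outside. The peak ranked 540 of 4537 and 411 of 6749 in the wild-type HIF-2α lists and 822 of 5228 and 635 of 6540 in the HIF-1α KO. No library of RCC4, HepG2 or the severity and duration experiment had a peak at this upstream site. NDUFS7 thus had HIF-1α peaks at its start, mostly in the severity and duration experiment. Its HIF-2α peaks lay well upstream, in the knockout experiment alone.

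**Figure D2:**
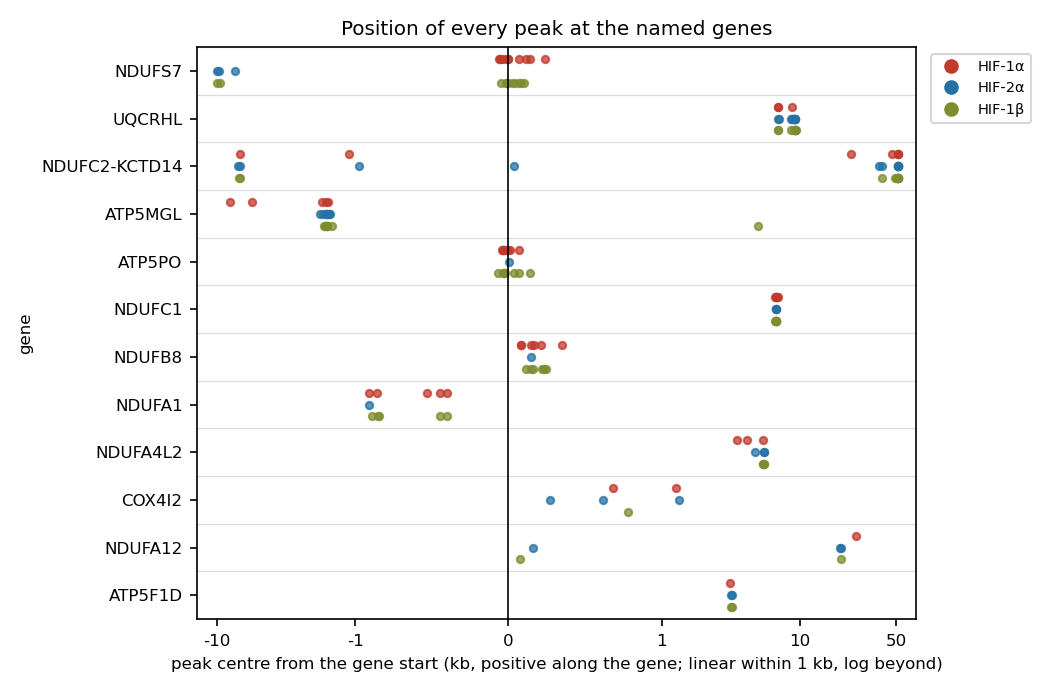
Distance in kb of each peak centre from the gene start (x axis, positive along the gene, linear within 1 kb and logarithmic beyond) for the 12 named genes (y axis), one point per peak, coloured by antibody. NDUFS7 has HIF-1α and HIF-1β points at its start and HIF-2α and HIF-1β points near 10 kb upstream, while NDUFC1, UQCRHL and ATP5F1D have their points away from the start.

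ATP5PO encodes the oligomycin-sensitivity subunit of the ATP synthase stalk. Its peak lay over the TSS (chr21:35287458-35288758) in 15 libraries, of which 7 were HIF-1α, 7 were HIF-1β and 1 was labelled HIF-2α. In wild-type HKC-8 it ranked 536 of 1913 and 379 of 1535 for HIF-1α and 850 of 6199 and 858 of 8279 for HIF-1β, and it was absent from both HIF-2α lists. In RCC4 it ranked 391 of 5680 and 1014 of 2120 for HIF-1α and was in neither HIF-2α nor HIF-1β list. The single HIF-2α call was in the library labelled HepG2 HIF-2α replicate 1 (416 of 5187). That library was 1 of those whose share of peaks at gene starts went against the order seen in wild-type HKC-8. ATP5PO was the one member called in both HIF-1α replicates of 2 cell lines, as were 2.93% of all genes.

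NDUFB8 and NDUFA1, accessory subunits of the membrane arm of complex I, were also called mostly for HIF-1α and HIF-1β, in fewer libraries. The NDUFB8 peak (chr10:102288612-102290239), over the first coding exon, was in 13 libraries, 6 of HIF-1α, 1 labelled HIF-2α and 6 of HIF-1β. Its nearest start by gene annotation was that of a read-through gene, 0.044 kb away. The NDUFA1 peak (chrX:119004325-119006365) was in 11 libraries, 5 of HIF-1α, 1 labelled HIF-2α and 5 of HIF-1β. It lay at -0.844 kb from the NDUFA1 start (upstream) and closer, at 0.745 kb, to the start of RNF113A, so the position alone does not assign it to NDUFA1. For both genes the 1 HIF-2α call was again in the library labelled HepG2 HIF-2α replicate 1, and the RCC4 call was in HIF-1α replicate 1 alone, the longer of that pair of lists.

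NDUFC1, another accessory subunit of complex I, had a peak 6.7 kb inside the gene, over a 5′ UTR exon (chr4:140215952-140217675), in 14 libraries. Here HIF-2α calls were not limited to HepG2. They came from wild-type HKC-8 replicate 1 (4004 of 4537), RCC4 replicate 1 (1791 of 4317) and the library labelled HepG2 HIF-2α replicate 1 (983 of 5187), beside 5 HIF-1α and 6 HIF-1β calls. In wild-type HKC-8 the HIF-1α ranks were 1098 of 1913 and 805 of 1535. The nearest gene start was that of NAA15, 5.6 kb away.

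UQCRHL, an intronless relative of the complex III hinge gene UQCRH, showed the opposite order of isoforms. A site 9.17 kb downstream of its start (chr1:16125069-16128247) was called in 16 libraries, 8 of HIF-2α, 7 of HIF-1β and 1 of HIF-1α. In HepG2 both libraries labelled HIF-2α had it (3764 of 5187 and 1237 of 4499), as did the library labelled HIF-1α replicate 2 (3768 of 6851). All 4 HIF-2α libraries of the knockout experiment had it, at 1578 of 4537 and 318 of 6749 in wild type and 319 of 5228 and 238 of 6540 in the HIF-1α KO, and so did both RCC4 HIF-2α libraries (1171 of 4317 and 682 of 2990). No HKC-8 or RCC4 HIF-1α library had it. A neighbouring site, 6.94 kb downstream (chr1:16128302-16129506), was called in all 6 HepG2 libraries, at 2.61% to 4.97% of the way down each list, and in no library of another line.

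ATP5MGL, a relative of the ATP synthase subunit g gene, had a site 1.61 kb upstream (chr22:43037434-43039284) in 16 libraries, 7 of HIF-2α, 6 of HIF-1β and 3 of HIF-1α. The wild-type HKC-8 HIF-2α peaks ranked 1521 of 4537 and 2185 of 6749, and those of the HIF-1α KO ranked 299 of 5228 and 485 of 6540. One HIF-1α call was in wild-type HKC-8 replicate 1, near the end of its list at 1569 of 1913. The other 2 were high in the lists labelled HepG2 HIF-1α, at 257 of 3470 and 374 of 6851. In the lists labelled HepG2 HIF-2α the peak ranked 550 of 5187 and 310 of 4499. The read-through gene NDUFC2-KCTD14 had calls in 17 libraries. In 15 of them a peak lay 51.2 kb from its start, 17.5 kb from the start of KCTD14, and far from the NDUFC2 part. NDUFC2 itself had a peak in 5 libraries, all HepG2, at 6.89 kb upstream.

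NDUFA4L2 was called in RCC4 and HepG2 and in 0 of 38 HKC-8 libraries. All 6 RCC4 libraries had a peak (chr12:57627025-57634930 in all, centred over the last exon in its 3′ UTR). In the RCC4 HIF-1β lists it ranked 4 of 911 in replicate 2 and 4 of 1305 in replicate 3. It ranked 85 of 4317 and 493 of 2990 for HIF-2α and 122 of 5680 and 1099 of 2120 for HIF-1α. The RCC4 HIF-1α peak of replicate 1 covered the whole gene and that of replicate 2 most of it, with centres 3.51 and 4.16 kb from the gene start, whereas the HIF-1β peaks were centred at 5.49 kb. The shorter coding transcripts start nearer, and the median centre was 1.83 kb downstream of the closest of them. In HepG2 the peak was in both HIF-1β libraries (1596 of 6171 and 1098 of 3986) and in the libraries labelled HIF-1α replicate 2 (972 of 6851) and HIF-2α replicate 1 (859 of 5187). The RCC4 HIF-1β peaks thus stood at the top of their lists, above those of any other member in any library.

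COX4I2 was called in 6 libraries near its start (chr20:30225079-30227162). In HKC-8 the peak was found at 0.5% oxygen for 6 h in replicate 1 of HIF-1α (727 of 1496) and of HIF-2α (287 of 1417), in neither replicate 2, and in no other HKC-8 library. In HepG2 it was in both libraries labelled HIF-2α (1926 of 5187 and 3822 of 4499), in HIF-1α replicate 2 (1970 of 6851) and in HIF-1β replicate 1 (1823 of 6171). RCC4 had none. ATP5F1D, the δ subunit of the ATP synthase rotor, had a site 3.2 kb downstream of its start (chr19:1244093-1245744) in 5 libraries, all HepG2, where both libraries labelled HIF-2α and both of HIF-1β had it. NDUFA12, an accessory subunit of complex I, had calls in 6 libraries spread over 3 sites, none in both replicates of a group.

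**Figure D3:**
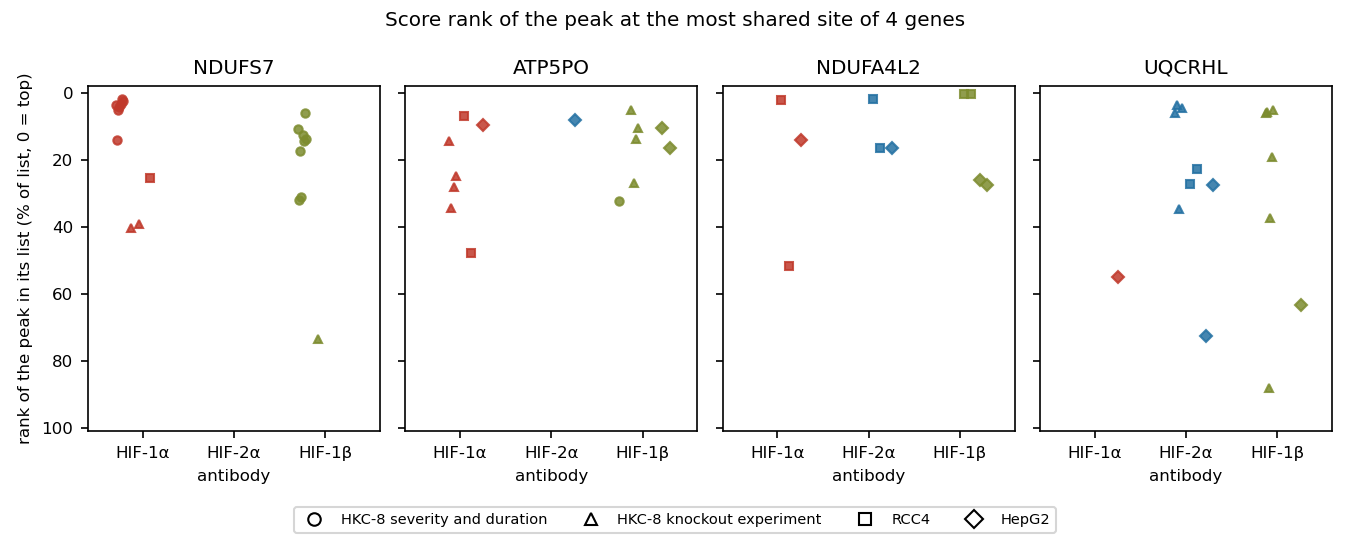
Rank of the peak by score within its own list (y axis, percent of the list, 0 at the top) at the most often called site of NDUFS7, ATP5PO, NDUFA4L2 and UQCRHL, one point per library, by antibody (x axis) and experiment (symbol). NDUFS7 has no HIF-2α point, and the RCC4 HIF-1β points of NDUFA4L2 are the highest, at rank 4 in both lists.

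The isoforms were compared within the 7 conditions that had both, 14 HIF-1α against 14 HIF-2α libraries, with an exact permutation test of peak presence per gene (two-sided, labels permuted within condition, Benjamini-Hochberg adjustment over 7021 genes). NDUFS7 was called in 9 HIF-1α and 0 HIF-2α libraries, with an unadjusted exact p of 0.00116 and an adjusted p of 0.508, so it did not pass. No gene passed among all 7021 (0%), and 221 genes (3.15%) had an unadjusted p under 0.05, 111 of them with more HIF-1α and 110 with more HIF-2α calls. The 0 depended on list length, since 45 genes passed when all lists were shortened to the same number of peaks, where NDUFS7 had 7 and 0 calls and an adjusted exact p of 0.0584. NDUFS7 was the only 1 of the 23 members tested among those 221. The other members leaned less. UQCRHL had 2 HIF-1α and 6 HIF-2α calls (exact p = 0.0556), ATP5PO 5 and 1 (exact p = 0.12), NDUFB8 and NDUFA1 4 and 1 (exact p = 0.278 each) and ATP5MGL 3 and 5 (exact p = 0.5), and the adjusted p of each was 1. NDUFA4L2 (3 and 3 calls) and COX4I2 (2 and 3) each had an exact p of 1. Without HepG2, 4927 genes were tested, 0 passed (0%) and 270 (5.48%) had an unadjusted p under 0.05. The NDUFS7 counts were again 9 and 0 of 12 libraries each, with an adjusted exact p of 0.173. ATP5PO then had 4 and 0 calls and UQCRHL 0 and 4 (exact p = 0.0556 and adjusted p = 0.903 for each), NDUFB8 and NDUFA1 3 and 0 (exact p = 0.167 each), ATP5MGL 1 and 3 (exact p = 0.5), NDUFA4L2 2 and 2, and COX4I2 1 and 1. With a search window of 11 kb, which takes in the upstream HIF-2α site, the NDUFS7 counts over all 7 conditions were 9 and 2 and the unadjusted exact p was 0.0185.

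The number of members with a peak was 1.36 higher per library for HIF-1α than for HIF-2α on average over the 7 conditions, against a spread of 3.96 (pooled SD of replicate pairs). In wild-type HKC-8 it was 7 and 5 for HIF-1α and 5 and 3 for HIF-2α. In RCC4 it was 13 and 3 against 3 and 2, and in HepG2 3 and 19 against 16 and 9. Without RCC4 HIF-1α replicate 1 the mean difference was 0.643, and without HepG2 it was 1.83. The difference was thus smaller than the spread between replicates, and in HepG2 the replicates of an antibody differed more than the antibodies.

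HIF-1β calls accompanied most member calls of the α-subunits. Of 74 calls of a member in a HIF-1α library, 64.9% had a HIF-1β call of the same gene in the same condition, against 56.1% of all HIF-1α calls. Of 57 calls in a HIF-2α library the share was 71.9%, against 67.0% of all HIF-2α calls. These shares move with the length of the HIF-1β list.

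**Figure D4:**
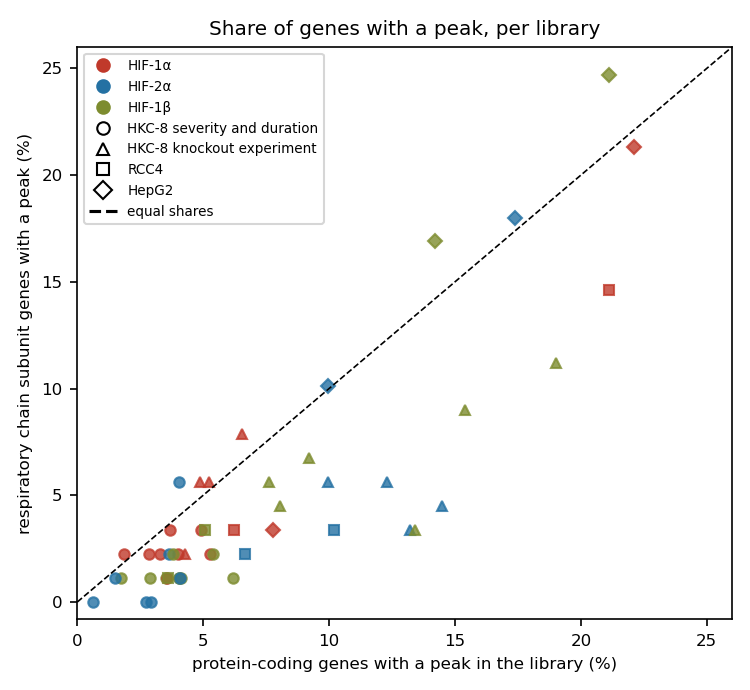
Share of the 89 respiratory chain subunit genes with a peak (y axis, percent) against the share of all protein-coding genes with a peak (x axis, percent) in each of the 50 libraries, coloured by antibody, with symbols for the experiment and a dashed line for equal shares. In 41 libraries the point lies below the line, with the smaller windows that members have as short genes. With equal windows of 10 kb around the TSS (not plotted) members had the lower share in 28 libraries and the higher in 22.

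Oxygen level and duration were compared in 12 libraries each, with labels permuted within antibody, where the smallest exact p for a gene is 0.00926. Such a p cannot pass adjustment over this many genes unless many genes reach it together. That 0 genes passed was thus all but fixed in advance and says nothing on a change. At 3% against 0.5% oxygen (6 h), 1625 genes were tested, 0 passed (0%) and 11 (0.677%) had an unadjusted p under 0.05, none of them among the 3 members tested. NDUFS7 was called in 4 of 6 libraries at 3% and in 4 of 6 at 0.5% (exact p = 1). For 48 h against 6 h, 1591 genes were tested, 0 passed (0%) and 5 (0.314%) had an unadjusted p under 0.05, again none of them a member, and NDUFS7 had 3 calls at 48 h and 4 at 6 h. For 16 h against 6 h, 1965 genes were tested, 0 passed (0%) and 6 (0.305%) had an unadjusted p under 0.05, none of them among the 4 members tested, and NDUFS7 had 4 calls at each time. COX4I2 and NDUFA12 were each called in 2 libraries at 0.5% oxygen for 6 h and in 0 of 6 at 3% oxygen, 16 h and 48 h. The exact p was 0.5 in each comparison, the lowest that 2 calls under different antibodies can give. The 3 comparisons share the libraries of 6 h at 0.5% oxygen. Members with a peak numbered 0 to 5 per library in this experiment, and a change with oxygen or time was not detectable in these lists.

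In the knockout experiment, 2 libraries against 2 cannot give an exact p below 0.33, so genes were counted as lost (peak in both wild-type libraries and in neither knockout library) or gained (the reverse). HIF-1β had a peak at 8 members in both wild-type libraries. In the HIF-1α KO it was lost at 5 of them, ATP5PO, NDUFA1, NDUFB8, NDUFC1 and NDUFS7, and kept in both libraries at the other 3, ATP5MGL, NDUFC2-KCTD14 and UQCRHL. Over all protein-coding genes HIF-1β was lost at 4.08% and gained at 0.233%, and 30.2% of the genes called in both wild-type libraries were lost. In the HIF-2α KO, HIF-1β was lost at 1 member, ATP5MGL, and kept in both libraries at 4, ATP5PO, NDUFB8, NDUFC1 and UQCRHL. Over all genes it was lost at 5.23% and gained at 0.0992%, and 38.7% of those called in both wild-type libraries were lost.

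For 4 of the 5 genes that lost HIF-1β in the HIF-1α KO, ATP5PO, NDUFB8, NDUFA1 and NDUFC1, both wild-type HIF-1α libraries had the peak. NDUFS7 was different, since its wild-type HIF-1β peaks were those about 10 kb upstream. HIF-1α KO HIF-1β libraries had peaks at the same place, just outside the window, at 983 of 3387 and 564 of 5786 in their lists. With a window of 11 kb NDUFS7 was therefore no longer lost, and 4 members were. Neither HIF-2α KO HIF-1β library had a peak at this upstream site. NDUFS7 was not counted as lost in the HIF-2α KO only because HIF-1β replicate 2 had a peak at the gene start (1531 of 2085). UQCRHL kept HIF-1β in both knockouts, with the peak at 2250 of 2550 and 781 of 2085 in the HIF-2α KO lists, which were shorter than those of wild type, where it was at 1192 of 6199 and 437 of 8279.

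HIF-1α itself was lost at 0 and gained at 0 members in the HIF-2α KO, against 0.749% and 0.273% of all genes. Of the 4 members with HIF-1α in both wild-type libraries, ATP5PO and NDUFB8 had it in both HIF-2α KO libraries, and NDUFA1 and NDUFC1 in replicate 1 only. HIF-2α was lost at 0 members in the HIF-1α KO and gained at 1, NDUFS7, against 0.789% and 1.67% of all genes. This gain came from the upstream site at the edge of the window, which wild-type HIF-2α libraries also had. With a window of 11 kb NDUFS7 was not gained and ATP5F1D was.

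The cell lines were compared by the members called in both replicates. Line and experiment cannot be told apart, and RCC4 was studied in normoxia. In wild-type HKC-8, HIF-1α had 4 such members (4.05% of all genes were called), HIF-2α had 3 (8.84%) and HIF-1β had 8 (13.5%). In RCC4, HIF-1α had 2 (4.68%), HIF-2α had 2 (4.18%) and HIF-1β had 1, NDUFA4L2 (2.12%). In HepG2, HIF-1α had 3 (5.28%), HIF-2α had 6 (5.76%) and HIF-1β had 12 (10.9%). As a share of the 89 members the HepG2 HIF-1β count was 13.5% and the wild-type HKC-8 count 8.99%. Unless stated, shares in this paragraph used the gene-body window, which was smaller for members. With 10 kb to either side of the TSS, members had a lower share than all genes for wild-type HKC-8 HIF-2α (2.25% against 3.32%). The same held for RCC4 HIF-1α (2.25% against 2.48%) and HIF-1β (1.12% against 1.39%). Their share was higher in the other groups of this paragraph, barely so for HepG2 HIF-1α (2.25% against 2.19%). Among these were HepG2 HIF-1β (13.5% against 7.72%) and HIF-2α (6.74% against 2.6%). The members called for HIF-2α in both replicates of 2 lines or more were ATP5MGL, NDUFC2-KCTD14 and UQCRHL (3 of 89, against 4.1% of all genes), and 8 members were called for HIF-1β in 2 lines (against 5.59% of all genes), among them ATP5PO, NDUFA1, NDUFB8 and NDUFC1 in HKC-8 and HepG2 and NDUFA4L2 in RCC4 and HepG2. For NDUFC2-KCTD14 the HIF-2α calls did not rest on a single shared site. Both wild-type HKC-8 peaks lay 51.2 kb from its start. The library labelled HepG2 HIF-2α replicate 1 had a peak 51.3 kb from it, but replicate 2 was called only through a peak 7.04 kb upstream. Of the 14 members called in both replicates of any antibody in a line, 9 remained when HepG2 was left out.

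Genes that act on the chain and lie outside the symbol rule for members gave a scale for these counts. Of 49 assembly factors, 35 (71.4%) had a peak in some library, against 59.9% of all genes and 50.6% of members. In at least 10 libraries 5 (10.2%) had one, against 12.5% of all genes and 10.1% of members. These shares used the gene-body window. Among the assembly factors COX20, a chaperone of COX2, had the most, 29 libraries (13 HIF-1α, 2 HIF-2α and 14 HIF-1β), 28 of them within 1 kb of its start. Of 13 other genes that act on respiration or mitochondria in low oxygen, 12 had a peak and 8 had one in at least 10 libraries. These 13 include CYC1, a complex III subunit that the symbol rule leaves out, with a peak in 10 libraries. Among them PDK1, the kinase that shuts pyruvate out of the citric acid cycle, had a peak in 46 libraries, BNIP3L, a mitophagy receptor, in 47, LONP1, a mitochondrial protease known to degrade COX4I1, in 38, and MXI1, a MYC antagonist, in 36. The 13 were picked for acting on respiration in low oxygen and include the known HIF targets PDK1, BNIP3L, LONP1 and MXI1. Their counts are therefore no independent comparison. NDUFS7, the member with the most calls, had 23. Of the 8 tissue-restricted or inducible paralogues of chain subunits, UQCRHL, NDUFA4L2, COX4I2 and COX8C had a peak, in 18, 10, 6 and 1 libraries, and COX6A2, COX6B2, COX7A1 and COX7B2 had none.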

How the data were processed

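Peak lists of 50 ChIP-seq libraries were analysed, without the 16 samples of input chromatin. The authors trimmed reads (Trim Galore 0.3.3), aligned them to GRCh37 (BWA 0.7.5a-r405), marked duplicates and removed low-quality reads (SAMtools 0.1.19, Picard 1.106, bedtools 2.17.0, as listed in the submitters' processing notes) and called peaks per library with MACS. The deposited value of each peak is a MACS score (lowest 50.0), used only to rank peaks within a list. The lists hold no read depth, so an uncalled site may lie just below the caller's limit.

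Peaks were assigned to the genes of GENCODE 44 on GRCh37 in Python 3.11.15 (numpy 2.4.6, pandas 2.3.3). Peaks at members that overlapped by at least 1 bp were merged into a site. Genes with a peak in at least 2 libraries of a comparison were tested by exact permutation, with Benjamini-Hochberg adjustment and a threshold of 0.05. The test was checked against full enumeration and tested on simulated data. Replicates are described as independent ChIP experiments. Named genes were NDUFA4L2, COX4I2, the 12 members with most libraries, and any that passed the isoform test, were lost or gained in a knockout, or were called for a HIF-α subunit in both replicates of 2 lines. Members and lists were chosen with earlier results of these data known. Alternatives were other windows, own nearest start, a score of at least 100, lists of equal length, each replicate or HepG2 left out, and a replicate block.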

Additional observations from a re-analysis of the deposited data

How the results depend on the processing

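Read depth is unknown, so its effect on the calls could not be measured. The mean difference in members per library between HIF-1α and HIF-2α was 1.36 and ranged from -0.143 to 2.86 when a replicate was left out. Genes called in that comparison numbered 0 except with lists of equal length (237 peaks each), where 45 of all genes passed and NDUFS7, with 7 and 0 libraries, did not (adjusted exact p = 0.0584). Over the alternatives the adjusted exact p of NDUFS7 ran from 0.0584 to 1. With the replicate block 0 genes passed, 139 had an unadjusted p under 0.05, and the unadjusted exact p of NDUFS7 was 0.00391. The block called 0 genes in the oxygen and time comparisons too, where that outcome was all but fixed in advance. Same-numbered libraries were not paired, since their deviations correlated at -0.28 to 0.12 over the 7 conditions. For 16 h against 6 h the difference of -0.667 members per library became 0.333 within 1 kb of the TSS. The 7 losses and gains in the knockouts became 3 within 1 kb, 4 for peaks nearest to the gene's own start, and 14 to 16 with 1 replicate, where a call needs 1 library. The 14 members called in a line became 4, 8 and 5 (within 1 kb, own start, lists of equal length), 9 without HepG2 and 14 to 32 with a replicate left out. The 11 kb window, leaving out HepG2 from the lines, RCC4 HIF-1α replicate 1 and replicate 3 were added after seeing the data. The cause of these changes was not tested, beyond the smaller windows, shorter lists and fewer libraries that the settings use.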
